A study of Homo sapiens with 12 samples.

Results

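The genes described here encode proteins of the mitochondrial ribosome. They are the rows of the deposited array table whose single gene symbol is MRPL or MRPS followed by a number and at most 1 letter, with pseudogenes and antisense RNAs left out and the brightest row kept where a gene had several. Of 18404 genes with a single symbol in the table, 73 were chosen in this way. They fell into 50 proteins of the large subunit, among them MRPS30 and MRPS18A, which sit in that subunit despite their names, and 23 of the small subunit. MRPL51, MRPS6, MRPS24 and MRPS28 lay on rows that carry several symbols and are not members, and MRPL36 was the member with more than 1 row.

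The arrays compared 2 established Hodgkin lymphoma lines, U-HO1 and L-1236, in which every cell analysed carried either an shRNA targeting GATA-3 or a control shRNA. U-HO1 was grown in IMDM and L-1236 in RPMI, so line and medium cannot be told apart. After 3 days of culture, 25000 cells positive for GFP went into each sample by sorting, and the RNA was amplified before hybridisation to a whole-transcript array. There were 3 arrays each of U-HO1 labelled knockdown, U-HO1 labelled control, L-1236 labelled knockdown and L-1236 labelled control, 12 in all. The design text describes the 3 samples of a group as independent but not whether they were separate cultures, and the p-values measure only the spread between these arrays.

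Levels are the authors' normalized values, read as log2, and array medians ran from 6.96 to 7.09. GATA3, the target of the shRNA, was read first. It stood at 11.07, 10.12 and 10.22 on U-HO1 arrays labelled knockdown and 11.24, 10.90 and 10.24 on U-HO1 control arrays, and at 10.80, 10.00 and 10.24 on L-1236 arrays labelled knockdown and 10.29, 10.69 and 9.95 on L-1236 control arrays. The labels overlapped in both lines (exact two-sided permutation test without pairing, p = 0.5 in U-HO1 and p = 0.9 in L-1236, smallest possible p = 0.1, n = 3 each), so arrays are called here only by their labels. Taken by replicate number, each U-HO1 array labelled knockdown read below its control array, while L-1236 arrays went both ways. Of 7 Hodgkin and Reed-Sternberg markers 4 were called higher in U-HO1 on control arrays (TNFRSF8, TRAF1, CCL17 and FSCN1), 1 lower (CCL22) and IRF4 and FUT4 not called, with differences between -2.05 and 2.93. Their mean ran from 9.65 to 9.92 on U-HO1 and from 9.13 to 9.47 on L-1236 arrays, with TRAF1 at 7.23 in L-1236 and CCL22 at 6.96 in U-HO1 near the array medians. T-cell markers averaged 6.03 to 6.21 on U-HO1 and 5.996 to 6.15 on L-1236 arrays over 6 genes, and monocyte markers 6.14 to 6.29 on U-HO1 and 6.18 to 6.30 on L-1236 arrays over 5 genes, with 0 of either list called between the lines. B-cell markers averaged 6.57 to 6.72 in U-HO1 and 7.43 to 7.66 in L-1236 over 5 genes, of which PAX5 and CD22 were called lower in U-HO1, and their part in the line differences was not tested.

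Mitochondrial ribosomes translate the messenger RNAs of the mitochondrial genome, all of which encode subunits of the oxidative phosphorylation complexes. Their ribosomal RNAs are made in the organelle, whereas every one of their proteins is encoded in the nucleus, made in the cytosol and imported. Some of these proteins have counterparts in bacterial ribosomes, and others were added in the mitochondrial lineage. Mutations in several of them cause combined deficiencies of oxidative phosphorylation.

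The first question was how the lines differ in this gene family on control arrays. Of the 73 members, 37 differed between U-HO1 and L-1236 at an adjusted p under 0.05 (limma, adjusted over all 32321 probe sets), 28 of them higher and 9 lower in U-HO1. Among all 18404 genes the shares were 16.4% higher and 15.6% lower, 32% in either direction, against 38.4% and 12.3% of members. Among the 13365 genes no dimmer than the dimmest member the shares were 21% higher and 19.4% lower, 40.4% together. In bulk RNA, fewer expressing cells and less RNA per cell cannot be told apart. The differences were mostly small: the median over members was 0.13 on the log2 scale, that over all genes -0.0023 (members 0.0863 without U-HO1 control replicate 1), and 12 of the 73 were called with a fold of at least 1.5, beside 17.1% of all genes. In the large subunit 23 members were higher, 6 lower and 21 not called, and in the small subunit 5 were higher, 3 lower and 15 not called. The median was 0.26 in the large and -0.00091 in the small subunit. No test of the difference between the subunits was made.

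**Figure D1:**
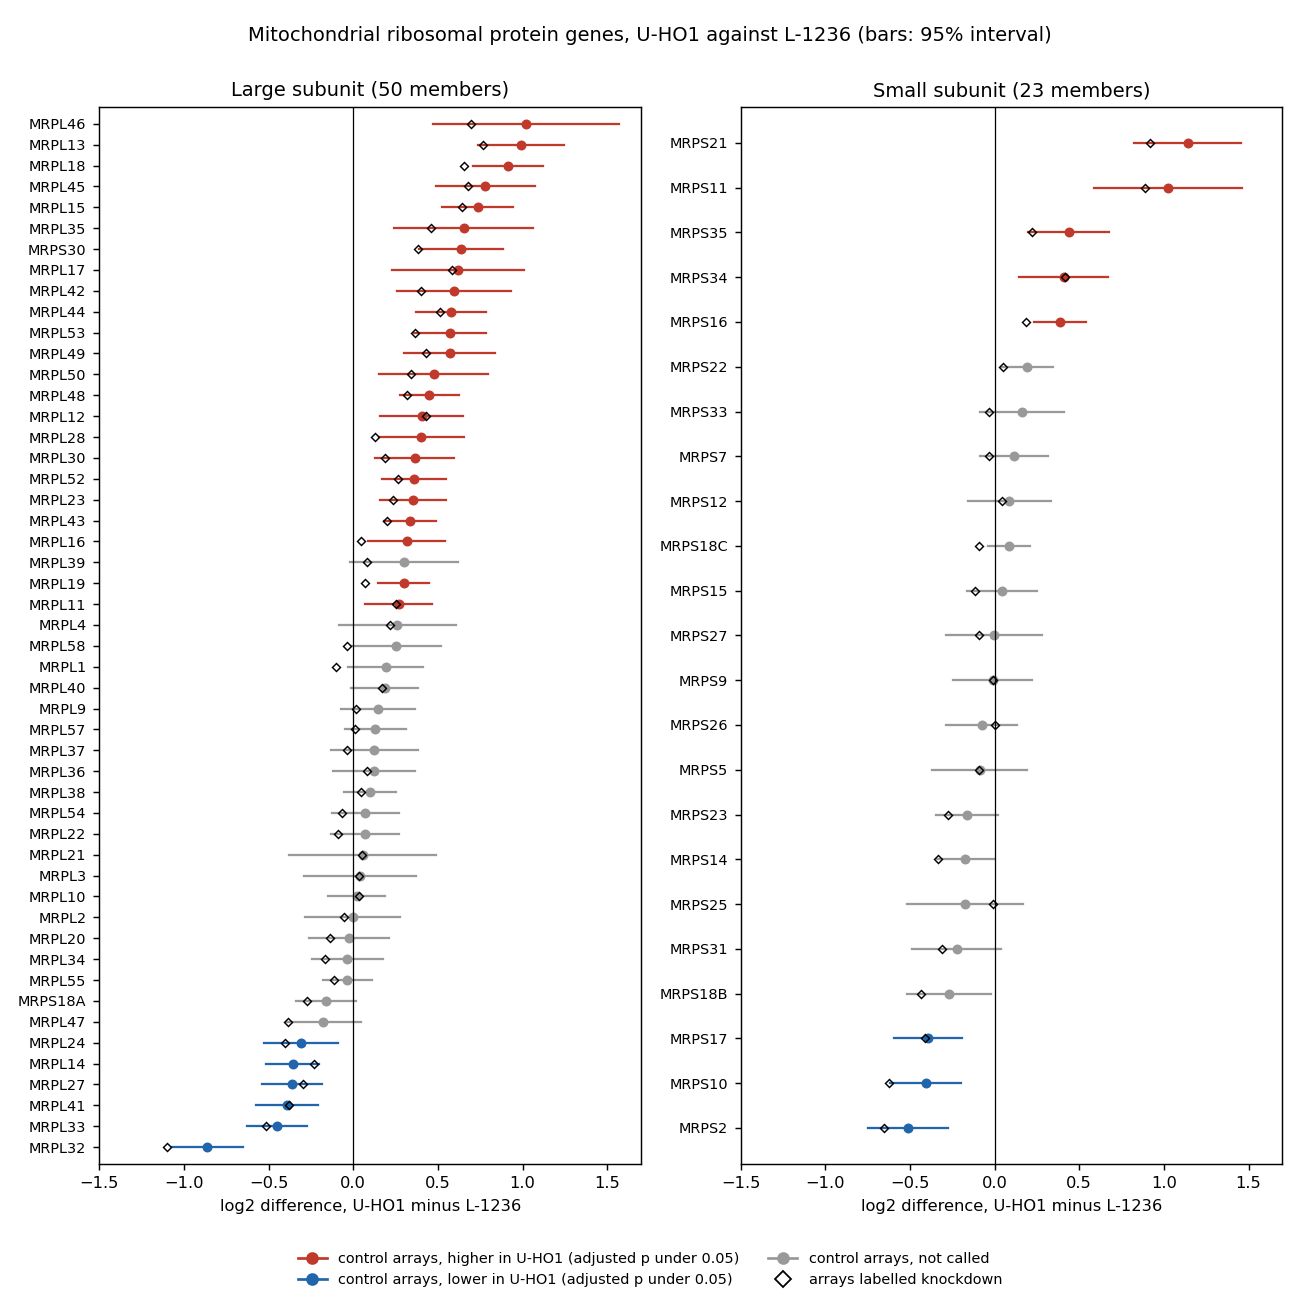
Log2 difference between U-HO1 and L-1236 for each member, large subunit left and small subunit right. Circles with bars give the control arrays (3 against 3) with the 95% interval of the fit, coloured by call, and open diamonds give the arrays labelled knockdown. The highest member is MRPS21 at 1.14 and the lowest MRPL32 at -0.86, and 28 of the 37 called members lie right of 0.

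In the small subunit the largest differences belonged to MRPS21 and MRPS11, which have counterparts in the bacterial small subunit. MRPS21 read 11.14, 11.03 and 11.03 on the U-HO1 arrays labelled knockdown and 11.27, 11.15 and 11.13 on the U-HO1 control arrays, against 10.26, 9.97 and 10.21 on the L-1236 arrays labelled knockdown and 9.78, 10.44 and 9.90 on the L-1236 control arrays. Its lowest U-HO1 array lay above its highest L-1236 array, and it was 2.2-fold higher in U-HO1 (log2 difference 1.14, SE 0.14, adjusted p = 9.29e-05). The genome holds 9 annotated pseudogenes named after MRPS21, and pseudogenes named after a member exist for 38 of the 73. Hybridisation of their transcripts to these probes was not tested. MRPS11 read 10.25, 10.63 and 10.62 on the U-HO1 arrays labelled knockdown and 10.21, 10.37 and 10.70 on the U-HO1 control arrays, against 9.33, 9.66 and 9.85 on the L-1236 arrays labelled knockdown and 8.96, 9.60 and 9.65 on the L-1236 control arrays. The lines did not overlap, and MRPS11 was 2.03-fold higher in U-HO1 (log2 difference 1.02, SE 0.20, adjusted p = 0.00228). Its U-HO1 control arrays had an SD of 0.25 and its L-1236 control arrays one of 0.39. MRPS35, MRPS34 and MRPS16 were also higher in U-HO1, with log2 differences of 0.44, 0.41 and 0.39. MRPS34 and MRPS16 are among the genes mutated in combined oxidative phosphorylation deficiency.

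The small-subunit members that were lower in U-HO1 were MRPS2, MRPS10 and MRPS17, again proteins with bacterial counterparts. MRPS2 read 9.43, 9.54 and 9.42 on the U-HO1 arrays labelled knockdown and 9.58, 9.44 and 9.35 on the U-HO1 control arrays, against 10.11, 9.98 and 10.25 on the L-1236 arrays labelled knockdown and 9.74, 10.12 and 10.03 on the L-1236 control arrays. All 6 U-HO1 arrays lay below all 6 L-1236 arrays, and MRPS2 was 1.42-fold lower in U-HO1 (log2 difference -0.51, SE 0.11, adjusted p = 0.00367). MRPS10 read 9.58, 9.34 and 9.52 on the U-HO1 arrays labelled knockdown and 9.42, 9.53 and 9.62 on the U-HO1 control arrays, against 10.11, 9.97 and 10.24 on the L-1236 arrays labelled knockdown and 9.82, 10.03 and 9.94 on the L-1236 control arrays. These did not overlap either, and MRPS10 was 1.33-fold lower in U-HO1 (log2 difference -0.41, SE 0.10, adjusted p = 0.00693). MRPS17 read 8.03, 8.08 and 7.99 on the U-HO1 arrays labelled knockdown and 8.12, 7.89 and 8.05 on the U-HO1 control arrays, against 8.48, 8.57 and 8.29 on the L-1236 arrays labelled knockdown and 8.43, 8.29 and 8.51 on the L-1236 control arrays. The lines were apart here too, and MRPS17 was 1.31-fold lower in U-HO1 (log2 difference -0.39, SE 0.09, adjusted p = 0.00736). MRPS12, the homologue of the bacterial decoding-centre protein, differed by 0.09 (SE 0.11), and MRPS15 by 0.05 (SE 0.09), neither past the threshold. MRPS15 read 10.42, 10.46 and 10.42 on the U-HO1 arrays labelled knockdown and 10.52, 10.36 and 10.44 on the U-HO1 control arrays, against 10.40, 10.49 and 10.75 on the L-1236 arrays labelled knockdown and 10.36, 10.53 and 10.30 on the L-1236 control arrays. MRPS15 overlapped between the lines under both labels. MRPS18C read 6.46, 6.50 and 6.52 on the U-HO1 arrays labelled knockdown and 6.59, 6.55 and 6.58 on the U-HO1 control arrays, against 6.57, 6.56 and 6.61 on the L-1236 arrays labelled knockdown and 6.45, 6.52 and 6.50 on the L-1236 control arrays. MRPS18C lay below the array medians, with U-HO1 above L-1236 on control arrays, below it on arrays labelled knockdown, and a line difference of 0.08 that was not called.

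**Figure D2:**
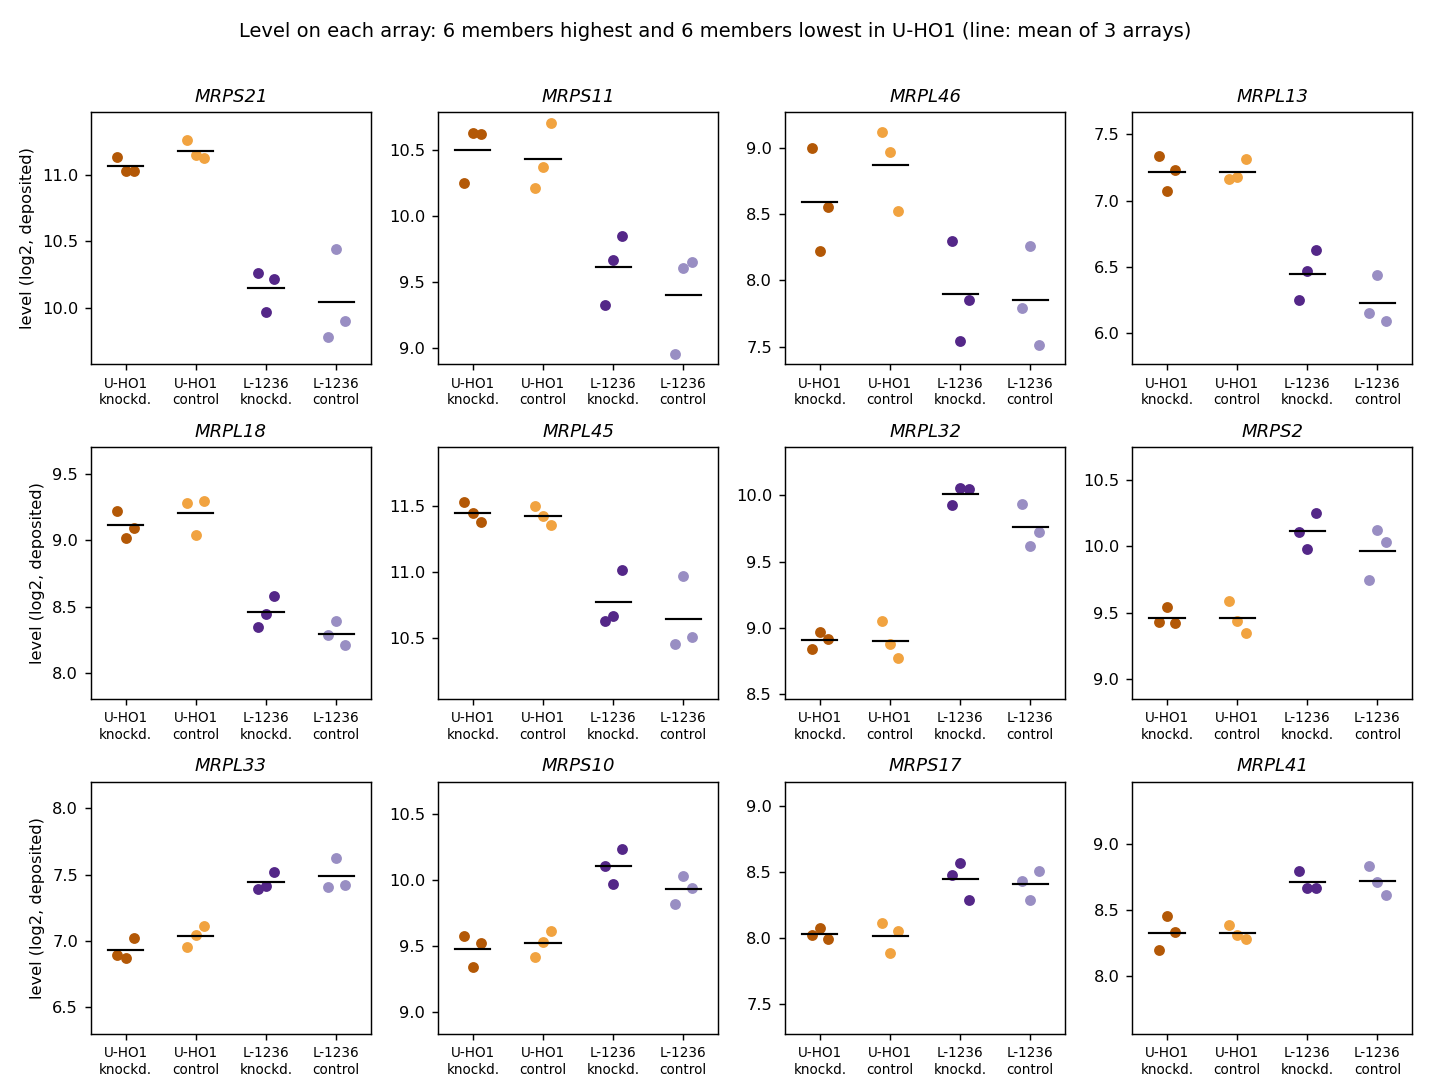
Level on each array (log2, as deposited) of the 6 members with the largest positive and the 6 with the largest negative line difference, each panel spanning the same range of log2 units. Points are arrays and bars group means of 3. U-HO1 and L-1236 arrays separate completely for 11 of the 12 genes, and overlap for MRPL46.

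In the large subunit MRPL46, MRPL13, MRPL18 and MRPL45 led the members that were higher in U-HO1. MRPL46 read 9.004, 8.22 and 8.55 on the U-HO1 arrays labelled knockdown and 9.12, 8.97 and 8.52 on the U-HO1 control arrays, against 8.30, 7.54 and 7.85 on the L-1236 arrays labelled knockdown and 7.79, 8.26 and 7.51 on the L-1236 control arrays. The lines overlapped, because U-HO1 knockdown replicate 2 read below L-1236 knockdown replicate 1 and control replicate 2, and the SE was the widest of any member. On control arrays MRPL46, a mitochondrion-specific protein of the central protuberance, was 2.03-fold higher in U-HO1 (log2 difference 1.02, SE 0.25, adjusted p = 0.00977). MRPL13 read 7.34, 7.08 and 7.23 on the U-HO1 arrays labelled knockdown and 7.16, 7.18 and 7.32 on the U-HO1 control arrays, against 6.25, 6.47 and 6.62 on the L-1236 arrays labelled knockdown and 6.15, 6.44 and 6.09 on the L-1236 control arrays. The lines were well apart, and MRPL13 was 1.99-fold higher in U-HO1 (log2 difference 0.99, SE 0.12, adjusted p = 5.27e-05). Its L-1236 levels lay below the array medians, and detection is not given for these values, so the fold is a ratio of measured values. MRPL18 read 9.23, 9.02 and 9.09 on the U-HO1 arrays labelled knockdown and 9.29, 9.04 and 9.30 on the U-HO1 control arrays, against 8.35, 8.45 and 8.58 on the L-1236 arrays labelled knockdown and 8.29, 8.39 and 8.21 on the L-1236 control arrays. MRPL18, another protein of the central protuberance, showed no overlap and was 1.88-fold higher in U-HO1 (log2 difference 0.91, SE 0.09, adjusted p = 1.87e-05). MRPL45 read 11.52, 11.44 and 11.38 on the U-HO1 arrays labelled knockdown and 11.49, 11.42 and 11.36 on the U-HO1 control arrays, against 10.63, 10.67 and 11.01 on the L-1236 arrays labelled knockdown and 10.46, 10.97 and 10.51 on the L-1236 control arrays. MRPL45 lies by the exit of the peptide tunnel and helps hold the ribosome at the inner membrane, and it was 1.72-fold higher in U-HO1 (log2 difference 0.78, SE 0.13, adjusted p = 0.00093), again with all 6 U-HO1 arrays above the rest.

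The large-subunit member furthest below 0 was MRPL32, whose precursor is cleaved by a mitochondrial protease before it enters the ribosome, as known from yeast and mouse. MRPL32 read 8.84, 8.97 and 8.91 on the U-HO1 arrays labelled knockdown and 9.05, 8.88 and 8.77 on the U-HO1 control arrays, against 9.92, 10.06 and 10.05 on the L-1236 arrays labelled knockdown and 9.94, 9.62 and 9.72 on the L-1236 control arrays. The lines were separated on every array, and MRPL32 was 1.82-fold lower in U-HO1 (log2 difference -0.86, SE 0.10, adjusted p = 3.52e-05). MRPL33 read 6.90, 6.87 and 7.02 on the U-HO1 arrays labelled knockdown and 6.96, 7.04 and 7.11 on the U-HO1 control arrays, against 7.39, 7.42 and 7.52 on the L-1236 arrays labelled knockdown and 7.41, 7.63 and 7.42 on the L-1236 control arrays. MRPL33, a small protein with a bacterial counterpart, had no overlap and was 1.37-fold lower in U-HO1 (log2 difference -0.45, SE 0.08, adjusted p = 0.00135). Its U-HO1 levels lay near the array medians, and detection is not given, so this fold too is a ratio of measured values. MRPL41 read 8.20, 8.45 and 8.34 on the U-HO1 arrays labelled knockdown and 8.39, 8.32 and 8.29 on the U-HO1 control arrays, against 8.80, 8.67 and 8.67 on the L-1236 arrays labelled knockdown and 8.84, 8.72 and 8.61 on the L-1236 control arrays. MRPL41, a mitochondrion-specific protein, was 1.31-fold lower in U-HO1 (log2 difference -0.39, SE 0.08, adjusted p = 0.00432). MRPL27, MRPL14 and MRPL24 were lower as well, at -0.36, -0.36 and -0.31.

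Within the large subunit the members were then read by position, beside 16.4% of all genes called higher and 15.6% lower. Of 5 proteins of the stalk and the GTPase-associated centre, which receive the translation factors, MRPL53, MRPL12 and MRPL11 were higher in U-HO1, by 0.57, 0.40 and 0.27. MRPL54 and MRPL10 differed by 0.07 and 0.02 and did not pass. MRPL54 read 6.53, 6.62 and 6.68 on the U-HO1 arrays labelled knockdown and 6.72, 6.85 and 6.61 on the U-HO1 control arrays, against 6.78, 6.74 and 6.51 on the L-1236 arrays labelled knockdown and 6.63, 6.75 and 6.59 on the L-1236 control arrays. The groups of MRPL54 overlapped, at levels below the array medians. Of 8 proteins around the tunnel exit, 4 were higher, namely MRPL45, MRPL17 at 0.62, MRPL44 at 0.58 and MRPL23 at 0.35, and MRPL24 was lower. MRPL39, MRPL22 and MRPL47 were not called, at 0.30, 0.07 and -0.18. Of 6 proteins of the central protuberance, MRPL46, MRPL18 and MRPL48, the last at 0.45, were higher. The other three were not called: MRPL58, a peptidyl-tRNA hydrolase built into the ribosome, at 0.25, MRPL40 at 0.19 and MRPL38 at 0.10. Near the peptidyl transferase centre, where peptide bonds form, MRPL16 was higher at 0.32 and MRPL27 lower, while MRPL4 at 0.26, MRPL3 at 0.04 and MRPL2 at -0.0038 did not pass. Each of these positions held called and uncalled proteins, and around the tunnel exit and the peptidyl transferase centre the calls went both ways.

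The remaining large-subunit members called higher were MRPL15 at 0.73, MRPL35 at 0.65, MRPS30 at 0.64, MRPL42 at 0.60, MRPL49 at 0.57, MRPL50 at 0.48, MRPL28 at 0.40, MRPL30 at 0.36, MRPL52 at 0.36, MRPL43 at 0.33 and MRPL19 at 0.30. By origin, 12 of 29 large-subunit proteins with a bacterial counterpart were higher and 5 lower, and of 19 mitochondrion-specific ones 10 were higher and 1, MRPL41, lower. In the small subunit 3 of 14 proteins with a bacterial counterpart were higher and 3 lower, and 2 of 9 mitochondrion-specific ones were higher and 0 lower. Beside these stood 16.4% of all genes higher and 15.6% lower, or 21% and 19.4% of genes no dimmer than the dimmest member. No class was tested against these shares. Of 12 measured members known to be mutated in combined oxidative phosphorylation deficiency, 4 were higher (MRPL12, MRPL44, MRPS16 and MRPS34) and 2 lower (MRPL24 and MRPS2). The 36 uncalled members ranged from -0.27 for MRPS18B to 0.30 for MRPL39.

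The line difference was measured a second time on the arrays labelled knockdown, which share no array with the control comparison. There 15 members were higher and 14 lower in U-HO1 at an adjusted p under 0.05 by limma, beside 14.2% and 16.9% of all genes, 31% in either direction. All 37 members called on control arrays had the same sign, and 24 of them were called again, 15 higher and 9 lower, with 0 in the opposite direction. When each set of 6 arrays was fitted on its own, so that not even the variance estimate was shared, 30 members were called on the arrays labelled knockdown and 31 on control arrays, and 21 on both, all in the same direction. The share of all genes that kept sign or call is not given, so this agreement is not shown to be particular to the members. MRPS21 differed by 0.92, MRPS11 by 0.89, MRPL13 by 0.77, MRPL45 by 0.68 and MRPL18 by 0.66 on the arrays labelled knockdown. MRPL46 differed by 0.70 there and missed the threshold (limma adjusted p = 0.0663). MRPL32 differed by -1.10, MRPS2 by -0.65 and MRPS10 by -0.62. Called on the arrays labelled knockdown alone were MRPS18B at -0.43, MRPL47 at -0.39, MRPS14 at -0.33, MRPS23 at -0.28 and MRPS18A at -0.27. By subunit, 12 large-subunit members were higher and 8 lower on these arrays, with a median of 0.0752. In the small subunit 3 were higher and 6 lower, with a median of -0.0352. The median over members was 0.0345 on these arrays and that over all genes 0.0226. The members' median was -0.0147 without L-1236 knockdown replicate 1, 0.0878 without L-1236 knockdown replicate 3, 0.0559 without U-HO1 knockdown replicate 1 and 0.0007 with array medians centred, so its sign was not settled. With both labels together 28 members were higher and 15 lower, beside 20.4% and 21.3% of all genes, 41.7% in either direction. On the arrays labelled knockdown, the 15 members called higher became 9 without U-HO1 knockdown replicate 3 and 25 with array quality weights. With array medians centred, 10 members were higher on those arrays beside 14 lower. Among genes no dimmer than the dimmest member, 17.7% were higher and 21.7% lower on these arrays, 39.3% in all.

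**Figure D3:**
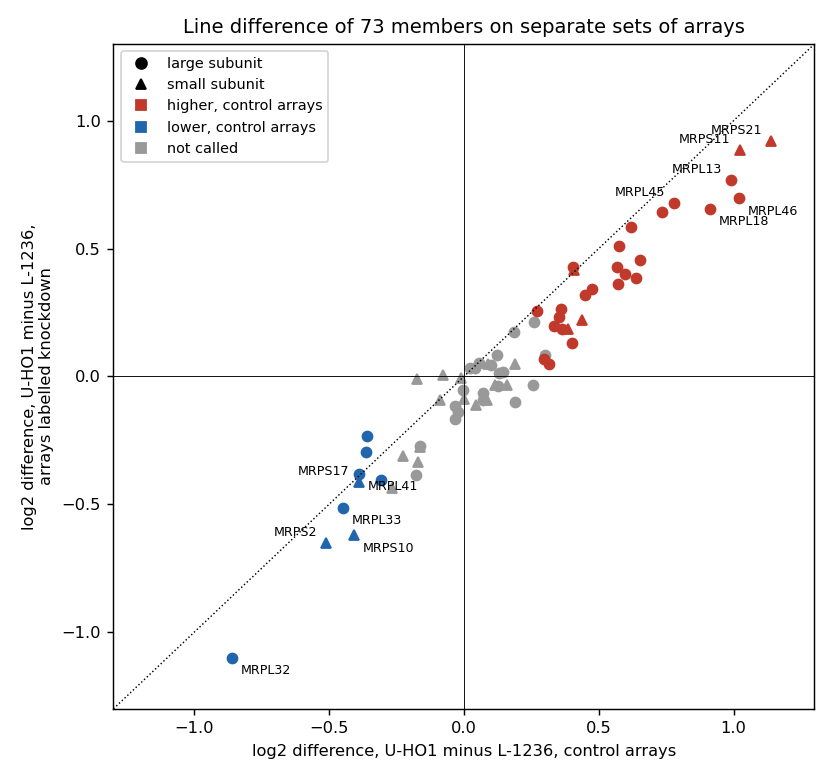
Line difference of each of the 73 members on control arrays (horizontal) and on arrays labelled knockdown (vertical), both as log2 of U-HO1 minus L-1236, with circles for the large and triangles for the small subunit and the dotted line marking equality. All 37 members called on control arrays keep their sign, and most points lie below the dotted line.

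Over all 12 arrays, 19 members had every U-HO1 array above every L-1236 array and 11 had every one below, beside 15% and 15.5% of all genes. The mean over the 73 members was 8.71, 8.71 and 8.74 on U-HO1 arrays labelled knockdown and 8.78, 8.69 and 8.75 on U-HO1 control arrays, against 8.57, 8.64 and 8.76 on L-1236 arrays labelled knockdown and 8.51, 8.62 and 8.55 on L-1236 control arrays. U-HO1 arrays lay close together in this mean, L-1236 arrays spread over a wider range, and L-1236 knockdown replicate 3 reached the U-HO1 level. The other gene families of protein synthesis and respiration were set beside this one, by symbol rules chosen with the data known. Of 66 cytosolic ribosomal protein genes 18 were higher and 6 lower on control arrays, with a median of 0.16, and of 80 oxidative phosphorylation subunits 26 were higher and 2, or 2.5%, lower, with a median of 0.14. A positive median was thus common to the 3 families on control arrays, and the difference between them was not tested. On the arrays labelled knockdown the medians were 0.0345 for the members, 0.0233 for cytosolic ribosomal proteins and 0.0958 for oxidative phosphorylation subunits, beside 0.0226 for all genes.

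The wider mitochondrial expression machinery was read from lists chosen with earlier results of these data known, beside 16.4% of all genes called higher, 15.6% lower and 32% in either direction on control arrays. Of 4 measured mitochondrial ribosomal proteins that carry other symbols, DAP3, a small-subunit protein that binds GTP, was lower in U-HO1 on control arrays at -0.47 (limma adjusted p = 0.000329), and PTCD3, CHCHD1 and GADD45GIP1 were not called. Of 15 translation factors and helpers 7 were higher and 2 lower, led by the recycling factor MRRF at 1.12, the membrane insertase OXA1L at 1.26 and the messenger RNA-binding protein LRPPRC at 1.16. All 3 were further from 0 than any large-subunit member. Of 26 assembly and ribosomal RNA modification factors 9 were higher and 4 lower, with METTL17 at 1.11, the ribosomal RNA methyltransferase MRM3 at 0.70 and the pseudouridine synthase family member RPUSD3 at -1.299. Of 16 mitochondrial aminoacyl-tRNA synthetases 4 were higher and 5 lower, with RARS2 for arginine at 0.93, VARS2 for valine at -1.01 and AARS2 for alanine at -0.69. Of 11 genes of mitochondrial DNA transcription and replication 5 were higher and 3 lower, with MTERF1 at 1.82, the nuclease MGME1 at 0.97 and TFAM, which packages mitochondrial DNA, at 0.82. Of 9 nuclear regulators of mitochondrial genes, MYC was higher at 0.65 (limma adjusted p = 0.0124) and GABPA, an ETS factor, lower at -0.54 (limma adjusted p = 0.00447), while PPRC1 at 0.47 was not called. On the arrays labelled knockdown 0 of the 9 regulators were called higher and 1 lower, beside 14.2% and 16.9% of all genes. The call of MYC was thus not repeated there.

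The members are spread over 21 chromosomes, and each was set beside up to 20 measured genes next to it, 10 on either side. The median line difference of these neighbours lay above 0 for 20 of the 28 members called higher, for 1 of the 9 called lower and for 4 of the 36 not called. Across the 73 members, the member's difference and its neighbours' median correlated at r = 0.54, as a description over genes that are not independent and some of which share neighbours. The same measures over all genes are not given, so this agreement with neighbours is not shown to be particular to the members. MRPL32 had the lowest neighbour median of the called members, -0.43, with 3 of 20 neighbours above 0 and 12 of 20 called. MRPS30, MRPL13, MRPL18 and MRPL45 had neighbour medians of 0.26, 0.18, 0.16 and 0.15. MRPS21 went the other way, with a neighbour median of -0.23 beside its own difference of 1.14. Gene copy number was not analysed here, and its part in these differences was not tested.

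**Figure D4:**
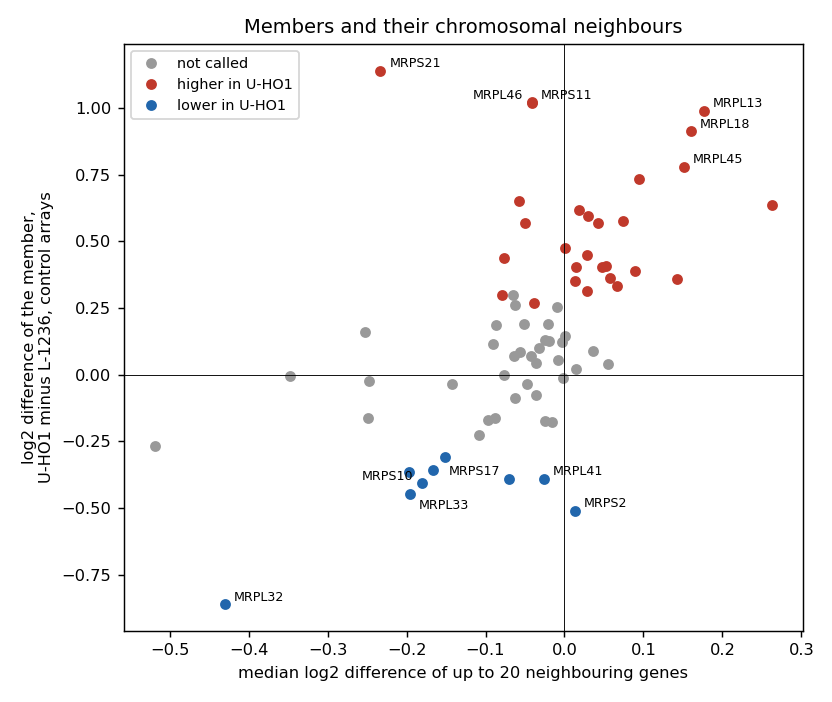
Line difference of each member on control arrays (vertical, log2) against the median line difference of up to 20 measured neighbouring genes (horizontal, log2), coloured by call. MRPL32 lies at the lower left with a neighbour median of -0.43, and MRPS21, MRPS11 and MRPL46 are high with neighbour medians below 0.

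MRPS11 and MRPL46 are direct neighbours on chromosome 15 and run in opposite directions, with start sites 320 bases apart in the RefSeq table (GRCh38.p14). Both were about equally higher in U-HO1 on control arrays, by 1.02 each, with a neighbour median of -0.04. Promoter windows of 250 bases before to 50 after the start site were available from RefSeq for 66 of the 73 members. A run of CCGGAAG, the core bound by ETS factors, on either strand was found in 28 of these, or 42.4%, beside 14.6% of 14230 measured genes' windows. A run of AAGATGGCG, bound by YY1, was found in 12, or 18.2%, beside 2.87%, and the palindromic consensus of NRF1 in 1, MRPL17, or 1.52%, beside 1.79%. The ETS core ends with the letters that begin the YY1 motif, so a single stretch can hold both. Matches to the ETS core were found in 10 of 24 members called higher, 3 of 9 called lower and 15 of 33 not called, so they occurred in members of each kind. The windows below are shown because they belong to the divergent pair and to 3 further members among those furthest apart between the lines that hold a match; capitals mark the ETS core and the YY1 motif on either strand.
MRPS11, chr15:88467458-88467757, plus strand: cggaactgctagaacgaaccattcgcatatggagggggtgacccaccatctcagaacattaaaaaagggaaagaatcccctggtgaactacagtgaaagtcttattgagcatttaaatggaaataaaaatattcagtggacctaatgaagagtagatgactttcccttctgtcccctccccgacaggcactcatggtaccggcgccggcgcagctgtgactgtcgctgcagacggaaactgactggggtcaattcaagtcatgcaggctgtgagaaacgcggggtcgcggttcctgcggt
MRPL46, chr15:88467339-88467638, minus strand: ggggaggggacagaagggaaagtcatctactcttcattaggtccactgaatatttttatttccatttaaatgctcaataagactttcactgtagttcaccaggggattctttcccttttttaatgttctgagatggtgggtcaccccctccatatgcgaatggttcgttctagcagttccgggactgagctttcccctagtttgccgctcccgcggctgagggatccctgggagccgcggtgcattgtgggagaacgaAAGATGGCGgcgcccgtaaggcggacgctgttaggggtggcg
MRPS21, chr1:150293611-150293910, plus strand: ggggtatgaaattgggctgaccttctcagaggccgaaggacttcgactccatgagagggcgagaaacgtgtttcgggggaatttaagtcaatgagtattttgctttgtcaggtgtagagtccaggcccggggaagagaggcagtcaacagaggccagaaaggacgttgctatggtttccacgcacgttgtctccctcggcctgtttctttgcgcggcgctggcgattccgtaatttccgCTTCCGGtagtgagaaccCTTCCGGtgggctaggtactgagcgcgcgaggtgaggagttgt
MRPS10, chr6:42217812-42218111, minus strand: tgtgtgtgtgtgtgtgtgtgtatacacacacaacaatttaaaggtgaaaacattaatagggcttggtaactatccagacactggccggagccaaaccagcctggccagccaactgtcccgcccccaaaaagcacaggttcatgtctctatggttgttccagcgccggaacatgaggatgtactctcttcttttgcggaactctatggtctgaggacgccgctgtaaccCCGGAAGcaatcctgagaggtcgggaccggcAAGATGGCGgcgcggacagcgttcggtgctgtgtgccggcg
MRPL32, chr7:42932126-42932425, plus strand: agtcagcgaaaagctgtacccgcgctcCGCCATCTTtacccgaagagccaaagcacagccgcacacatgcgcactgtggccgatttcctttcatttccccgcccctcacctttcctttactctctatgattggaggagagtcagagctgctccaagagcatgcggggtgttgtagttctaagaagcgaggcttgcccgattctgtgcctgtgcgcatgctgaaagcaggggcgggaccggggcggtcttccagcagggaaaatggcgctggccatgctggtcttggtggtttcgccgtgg
The windows of MRPS11 and MRPL46 share 181 bases, read from opposite strands. MRPL46 holds a YY1 match just after its start site and MRPS11 holds none of the 3 motifs. MRPS21 holds 2 matches to the ETS core, MRPS10 one each of ETS and YY1, and MRPL32 a YY1 match far upstream. A match describes the letters only.

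The second question, named by the submitters, was what the shRNA against GATA-3 changed in each line. In U-HO1 the limma test called 0 of 73 members at an adjusted p under 0.05, and 0 had an unadjusted p under 0.05, beside 0% and 1.05% of all probe sets. No probe set in either line met the looser pair of criteria that the submitters named, a fold of 1.5 and an FDR of 25%. Of the members 26 were above 0 and 47 below, with a median of -0.02, beside 50.2% of all genes above 0. That median was -0.0014 without U-HO1 control replicate 1, -0.0488 without U-HO1 control replicate 2, -0.0259 without U-HO1 knockdown replicate 3 and -0.0299 with array quality weights. MRPL3, a member near the peptidyl transferase centre, read 9.74, 9.86 and 9.93 on arrays labelled knockdown and 9.68, 9.58 and 9.83 on control arrays, a log2 difference of 0.15 (SE 0.15) in overlapping groups. MRPS12 read 7.91, 8.29 and 8.06 on arrays labelled knockdown and 8.21, 7.88 and 7.89 on control arrays, also with overlap. MRPS18C read 6.46, 6.50 and 6.52 on arrays labelled knockdown and 6.59, 6.55 and 6.58 on control arrays, and its labels did not overlap, although the log2 difference was only -0.08 (SE 0.06). MRPL55 read 7.79, 7.94 and 7.86 on arrays labelled knockdown and 7.91, 7.98 and 7.97 on control arrays. Members whose 3 arrays labelled knockdown all lay below the 3 control arrays numbered 2, MRPL19 and MRPS18C, beside 1.53% of genes, and 0 had all 3 above, beside 1.5%. For 72 of the 73 members the 95% interval of the difference stayed within a fold of 1.5, the exception being MRPL46.

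In L-1236 the limma test likewise called 0 of 73 members, beside 0% of all probe sets, and 5 had an unadjusted p under 0.05 (MRPS16, MRPL32, MRPL28, MRPL19 and MRPL43), beside 4.77%. MRPS16 read 9.18, 9.14 and 9.21 on arrays labelled knockdown and 8.93, 8.98 and 9.06 on control arrays, a log2 difference of 0.19 (SE 0.07), and the labels did not overlap. MRPL32 read 9.92, 10.06 and 10.05 on arrays labelled knockdown and 9.94, 9.62 and 9.72 on control arrays, a difference of 0.25 (SE 0.10) with overlap. MRPL14, the large-subunit protein that faces the small subunit, read 8.94, 8.94 and 8.91 on arrays labelled knockdown and 9.04, 8.98 and 9.09 on control arrays, every labelled-knockdown array lower. MRPS25 read 8.48, 8.86 and 9.11 on arrays labelled knockdown and 8.87, 9.10 and 8.89 on control arrays and overlapped. Members with all 3 arrays labelled knockdown above the control arrays numbered 4, namely MRPL19, MRPS14, MRPS16 and MRPS18C, beside 3.44% of genes, and MRPL14 alone had all 3 below, beside 4.47%. The 95% interval stayed within a fold of 1.5 for 70 members, all but MRPL35, MRPL46 and MRPS11.

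The members lay to one side in L-1236 without any of them passing: 64 were above 0 and 9 below, with a median of 0.11, where 53.1% of all genes were above 0. After quantile normalization 55 were above 0, the median was 0.06, and 60.9% of all genes were above 0. With array medians centred 70 were above 0, the median was 0.17, and 77.8% of all genes were above 0. The median was 0.0462 without L-1236 knockdown replicate 3. The mean over members overlapped between the labels, as given above, with knockdown replicate 3 the highest at 8.76 and knockdown replicate 1, at 8.57, below control replicate 2 at 8.62. Cytosolic ribosomal proteins had 61 of 66 and oxidative phosphorylation subunits 66 of 80 above 0 in the same comparison. The difference between the effects in the lines was called for 0 of 73 members by limma, beside 0% of all probe sets, and 1, MRPL19, had an unadjusted p under 0.05, beside 2.46%.

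**Figure D5:**
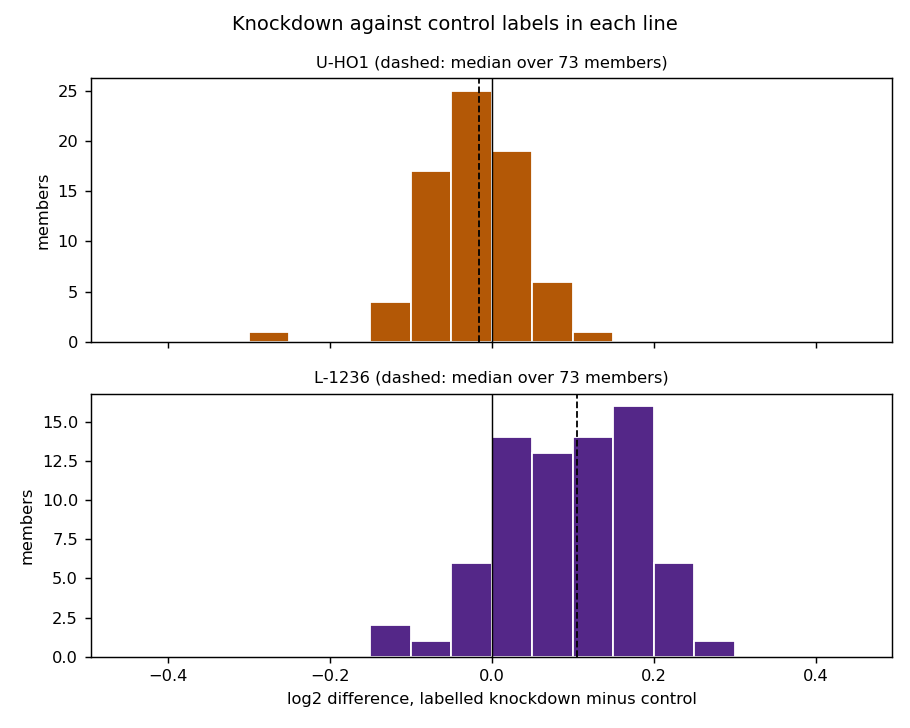
Histograms of the log2 difference between arrays labelled knockdown and control for the 73 members, U-HO1 above and L-1236 below, with the solid line at 0 and the dashed line at the median (-0.02 in U-HO1 and 0.11 in L-1236). In U-HO1 the member set apart at the left is MRPL46 at -0.28, and in neither line did a member pass the test.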

How the data were processed

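The deposited table holds log2 values for 32321 probe sets on 12 arrays, normalized by the authors. Per the submitters' processing notes the software upstream was R 2.8.1. The sources used here give no method for background correction, normalization or summary, so the log base is read from the range of 3.86 to 13.99. Through the platform annotation 19158 probe sets have 1 symbol, 1388 several and 11775 none. Groups follow the sample titles.

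A mean per group was fitted over all 12 arrays with limma 3.58.1 in R 4.3.3 (lmFit, eBayes, 8 residual degrees of freedom, no filter), with Benjamini-Hochberg adjustment over all probe sets. The fit was tested on simulated data with a line difference put into 200 of the 32321 rows. On control arrays it called 60% of changes of 1.5-fold and 94% of changes of 2-fold, with 13 false calls among 32321 rows. In the real control comparison 25.8% of all probe sets were called, far more than were changed in the simulation. The adjustment is stricter when few rows differ, so these percentages do not give the sensitivity of the reported calls. A change of 1.5-fold may still go uncalled. The number of arrays limits precision. Same-numbered arrays of a line correlated between -0.40 and 0.32 in their deviations from group means, and differently numbered arrays between -0.38 and 0.54. Whether same-numbered arrays were prepared together cannot be read from this, and the main fit did not pair them.

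Values per array are given for the 6 called members furthest apart between the lines in each direction and the 2 smallest p each way of each knockdown comparison. The rule also named the 3 brightest and 3 dimmest members by mean level, which are MRPL45, MRPS21 and MRPS15 at the top and MRPS18C, MRPL54 and MRPL13 at the bottom; levels are not compared between genes. The few members named with counts of 5 or fewer were chosen after their values were seen. Members and lists were chosen with earlier results of these data known. Alternatives are listed in the closing section.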

Additional observations from a re-analysis of the deposited data

Results flagged for a closer look

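A pair of members was flagged because the arrays labelled knockdown lay wholly below the control arrays in U-HO1 and wholly above them in L-1236. Of all genes, 1.53% lay wholly below in U-HO1 and 3.44% wholly above in L-1236. The share of genes with both is not given, so the pair is not shown to be unusual. MRPL19 in U-HO1 read 8.649, 8.617 and 8.716 on arrays labelled knockdown and 8.720, 8.745 and 8.736 on control arrays, and in L-1236 8.552, 8.592 and 8.637 on arrays labelled knockdown and 8.313, 8.513 and 8.483 on control arrays. The difference between the effects, U-HO1 minus L-1236, was -0.23 on the log2 scale (SE 0.10, limma adjusted p = 0.9997). MRPS18C in U-HO1 read 6.46, 6.50 and 6.52 on arrays labelled knockdown and 6.59, 6.55 and 6.58 on control arrays, and in L-1236 6.57, 6.56 and 6.61 on arrays labelled knockdown and 6.45, 6.52 and 6.50 on control arrays. The difference between its effects was -0.18 (SE 0.08, limma adjusted p = 0.9997), and its levels lay below the array medians. Neither passed the test of the difference.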

How the results depend on the processing

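On control arrays the members higher in U-HO1 numbered 28 as reported and 21 to 28 under the alternatives, which were array quality weights, a filter on dim probe sets, a fit of 6 arrays alone, centred medians, quantile normalization, a replicate block, a robust prior with a trend, averaged rows of a gene, and both labels together. The members lower numbered 9 and 8 to 11, or 15 with both labels together. On arrays labelled knockdown the members higher numbered 15 and 10 to 16, or 25 with array quality weights, and the members lower 14 and 11 to 15. With single arrays left out these counts ran from 20 to 27, 8 to 9, 9 to 17 and 10 to 14. The count of 9 higher on arrays labelled knockdown was without U-HO1 knockdown replicate 3. The cause was not tested. The median line difference ran from 0.11 to 0.16 on control arrays and from 0.0007 to 0.0359 on arrays labelled knockdown, and from 0.0863 to 0.1877 and -0.0147 to 0.0878 with single arrays left out. The median knockdown difference ran from -0.0299 to -0.0108 in U-HO1 and from 0.0616 to 0.1686 in L-1236, and from -0.0488 to -0.0014 and 0.0462 to 0.1486 with single arrays left out. A replicate block takes same-numbered arrays of a line as paired. With it the counts were 21 higher and 8 lower on control arrays and 10 and 11 on arrays labelled knockdown. The counts of 0 in the knockdown comparisons and their difference were 0 under every alternative run for them, single arrays left out included. The 6 members furthest apart in each direction kept direction and call under each of 20 alternatives. Levels near or below the array medians, as for MRPL13, MRPL33, MRPL54 and MRPS18C, limit what can be seen because detection is not given.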

Other observations

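MRPL46 had the widest spread of any member, and after its values were seen each member was set against the measured level of GATA3 over the 6 arrays of a line, 146 relations in all. In U-HO1 MRPL46 and GATA3 correlated at r = 0.963 (exact permutation p = 0.0153, adjusted over the 146 relations 0.304) and rho = 0.943 (exact permutation p = 0.0167, adjusted 0.406). In L-1236 they correlated at r = 0.992 (exact permutation p = 0.00417, adjusted 0.203) and rho = 0.943 (exact permutation p = 0.0167, adjusted 0.406). Without the 2 arrays furthest from the median of GATA3 in each line, r came to 0.933 for U-HO1 and to 0.959 for L-1236, over the 4 arrays left. No relation passed the adjustment. Other members also correlated with GATA3 over the 6 arrays of both lines, such as MRPS9 at r = -0.954 in U-HO1 and -0.899 in L-1236. Without the 2 furthest arrays MRPS9 came to -0.921 in U-HO1 but only -0.346 in L-1236. MRPL42 stood at 0.889 in U-HO1 and 0.756 in L-1236, and at 0.779 and 0.788 without those arrays. Of 18403 genes besides GATA3, 3 correlated with GATA3 at 0.963 or more in both lines, namely MRPL46, DCTN4 and MID1. That bound is the lower r of MRPL46 itself, so its own place was fixed in advance and the count is no test of it. MRPL46 did not follow the labels: its highest and lowest arrays in L-1236 were knockdown replicate 1 at 8.30 and control replicate 3 at 7.51, which were also the highest and lowest for GATA3.

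MRPS11, which shares its promoter region with MRPL46, ran against it in U-HO1, with r = -0.911 between them. Over the L-1236 arrays r was only -0.191, and neither value was tested. Its own correlation with GATA3 was r = -0.979 in U-HO1 (exact permutation p = 0.00972, adjusted 0.284; rho = -0.829, exact permutation p = 0.0583, adjusted 0.568; r = -0.937 without the 2 furthest arrays) and r = -0.299 in L-1236 (exact permutation p = 0.585, adjusted 0.970; rho = -0.600, exact permutation p = 0.242, adjusted 0.851; r = -0.490 without the 2 furthest arrays).

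The rows left out for carrying several symbols gave line differences on control arrays of 0.67 for MRPS28 with TPD52, 0.35 for MRPL51 with SPTLC1, 0.20 for MRPS6 with SLC5A3 -0.02 for MRPS24 with URGCP-MRPS24 and -1.02 for URGCP with URGCP-MRPS24, and which gene of a row gave its signal was not tested. The second row of MRPL36 differed by -0.03 between the lines on control arrays and by 0.35 on arrays labelled knockdown, where the brighter row gave 0.12 and 0.08. The pseudogene MRPS31P5 differed by -0.24, beside -0.22 for MRPS31, neither past the threshold.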
